A study of Macaca fascicularis with 12 samples.

Results

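The ribosomal proteins of the cytosol were followed in the brains of 3 male cynomolgus macaques (Macaca fascicularis), all adult, after injection of a baculovirus vector. In every animal the left hemisphere received the baculovirus BV-HSVtk by 4 injections into the striatum, each of 10 µL with 1e8 particles. The right hemisphere received a mock preparation at corresponding sites, which was virus-free Sf9 insect cell medium put through the same purification. Tissue was taken 2 days later, in 2 pieces per hemisphere, and 12 arrays were made, 6 labelled BV and 6 labelled mock. The same 3 animals therefore stand in both groups, and virus and left hemisphere cannot be told apart. Members were all probe sets whose only gene symbol in the array annotation was RPL or RPS with a number, or RPLP0, RPLP1, RPLP2 or RPSA, without pseudogenes and the RPS6K kinases. This gave 69 probe sets of 41 genes, of 24956 probe sets and 14132 genes with a single symbol on the array.

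The cytosolic ribosome is built from a small subunit, named 40S, which reads the messenger RNA, and a large subunit, named 60S, which joins the amino acids. Their proteins, named RPS and RPL, are needed by every cell in matched amounts, and their messenger RNAs are usually regulated together. RPL24 belongs to the large subunit, sits at the face that meets the small subunit and is added late, in the cytoplasm. The question asked here was whether a higher RPL24 signal in virus-injected tissue was shared by the rest of the ribosome. RPL24 had been singled out because earlier results of the same arrays showed it high, so its own values are a description.

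The members held 20 genes of the 60S body, 12 of the 40S subunit, RPLP1 and RPLP2 of the large subunit's stalk, and 6 paralog genes (RPL3L, RPL7L1, RPL22L1, RPL26L1, RPL36AL and RPS27L). RPS19BP1, which encodes a binding partner of RPS19 and no part of the ribosome, also met the rule. All 41 symbols occur in a RefSeq table of Macaca fascicularis genes (assembly T2T-MFA8v1.1). That table lists 86 such symbols, and the other 45, among them RPL11, RPLP0 and RPSA, had no single-symbol probe set and were not analysed here. A further 6 probe sets are listed with a ribosomal gene together with numbered loci, and 1 of them includes RPL24. Values are log2 of the quantile-normalized signal plus a pseudocount of 3.49, and a fold is BV minus mock on that scale. The filter on dim probe sets was a mean log2 value of 4.95, which 60 member probe sets of 39 genes passed. The other 9 included the only probe sets of RPL3L, a muscle paralog of RPL3, and of RPL5, a partner of 5S ribosomal RNA. Their deposited signals stayed between 1.18 and 7.53 for RPL3L and between 3.86 and 24.1 for RPL5. RPL5 is used by every cell, so no level of its transcript was read from them.

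The only probe set listed with RPL24 alone was high in every virus-injected piece. Values given for RPL24 are those of this probe set. Array medians differ between the pieces, at 50.2 to 62.7 in piece 1 and 25.3 to 32.7 in piece 2, so deposited signals are set side by side within a piece. In piece 1 the RPL24 signal was 5695, 7769 and 8833 in the BV arrays of animals 1, 2 and 3, and 2345, 2833 and 3410 in the mock arrays. In piece 2 it was 3329, 3252 and 3517 in the BV arrays and 1287, 1722.5 and 1028 in the mock arrays. Within either piece the lowest BV array lay above the highest mock array. BV over mock ratios of these deposited signals, pair by pair, were 2.43, 2.59, 2.74, 1.89, 2.59 and 3.42.

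After normalization the RPL24 log2 values ran from 12.21 through a median of 12.47 to 12.49 in BV tissue and from 10.38 through 10.96 to 11.36 in mock tissue, with no overlap. The fold was 1.46 ± 0.09 (SE of the limma fit, n = 3 animals), or 2.76-fold, with a 95% interval from 1.24 to 1.68. By animal it was 1.44, 1.35 and 1.60, and RPL24 was higher in 6 of 6 replicate pairs. In 5 of the 6 BV arrays the value lay between 12.45 and 12.49, near the top of the scale, where it was among the 32 brightest of all 52865 probe sets. In BV replicate 1 it ranked 86 and in the mock arrays from 466 to 1329.

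The RPL24 call rested on single arrays, whereas its direction was the same in all settings tried. Without 1 array at a time the fold stayed between 1.31 and 1.62. It did not pass adjustment in limma without BV replicate 6 (adjusted p = 0.0655), mock replicate 3 (adjusted p = 0.215) or mock replicate 5 (adjusted p = 0.654), nor without animal 1 (1.47, adjusted p = 0.164) or in the piece 2 arrays alone (1.63, adjusted p = 0.545).

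**Figure D1:**
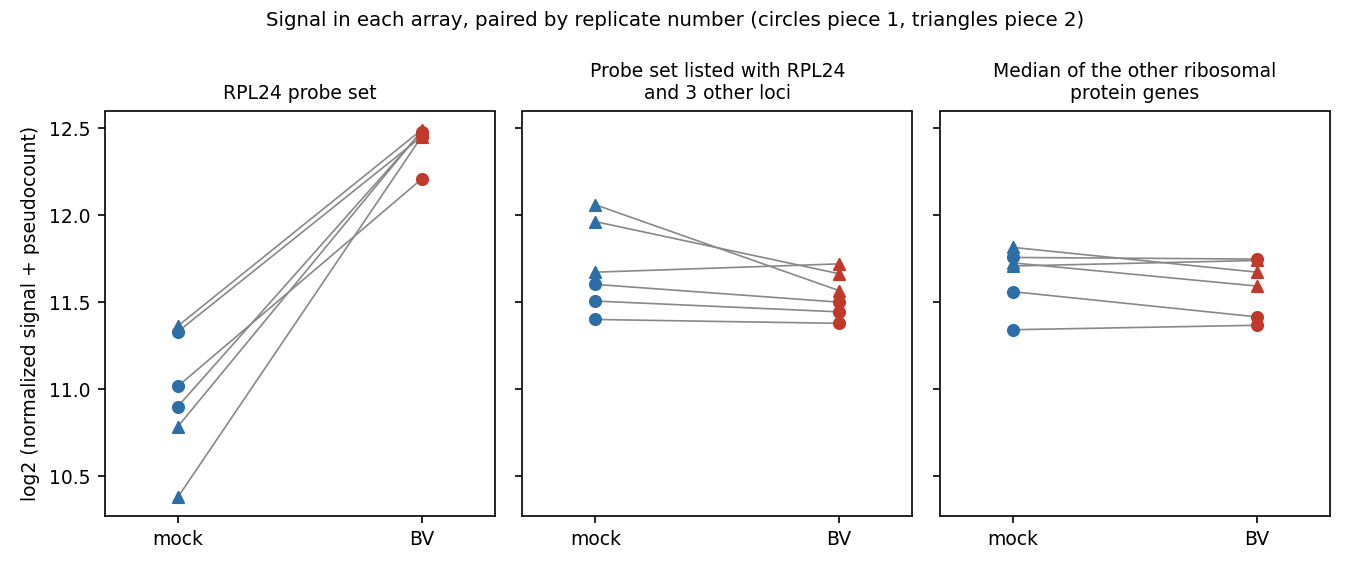
Log2 normalized signal of each array for the RPL24 probe set, for the probe set listed with RPL24 and 3 other loci, and for the median of the other ribosomal genes without paralogs and RPS19BP1. Lines join BV and mock arrays of a replicate number, circles are piece 1 and triangles piece 2. The RPL24 lines rise from between 10.38 and 11.36 to between 12.21 and 12.49, and the other panels stay between 11.34 and 12.06.

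The array carries a second probe set listed with RPL24, and it did not show the rise. It is listed with RPL24 and with LOC699643, LOC698942 and LOC695715, so it cannot be given to RPL24 alone. Its deposited signals in piece 1 were 3069, 3126 and 4421 in BV and 3298, 4063 and 4308 in mock tissue. In piece 2 they were 2243, 2152 and 2097 in BV and 2539, 2068 and 3298 in mock tissue. The groups overlapped, and the BV value was higher in 1 of 6 normalized pairs. The fold was -0.16 ± 0.10 (limma, n = 3 animals, adjusted p = 0.585), with a 95% interval from -0.39 to 0.08. Between this probe set and the one listed with RPL24 alone the animals' folds differed by 1.62, 1.34 and 1.89. Probe sequences were not used here, so which transcripts each of them binds was not checked. A rise of the RPL24 transcript itself is therefore not established here.

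The other members that were tested did not share the rise. Over all 31660 probe sets tested, 9 were called higher in BV tissue (0.0284%) and 0 lower (0.0%) in limma with animal as a block. RPL24 was the only member among them, and its count is a matter of how it was singled out. Of the other 59 member probe sets 0 were called, and 0 had an unadjusted p under 0.05 in either direction. Over all probe sets 5.15% were higher and 3.65% lower at that unadjusted threshold. In the fit on 6 replicate pairs 53 probe sets were called higher (0.167%), and RPL24 was again the only member. All 6 BV arrays lay above all 6 mock arrays in 0.237% of probe sets and below them in 0.136%, and RPL24 was the only member in either class. Folds beyond 0.5 in size were seen in 9.95% of all probe sets and, apart from RPL24, in 1 member probe set, of RPL29.

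**Figure D2:**
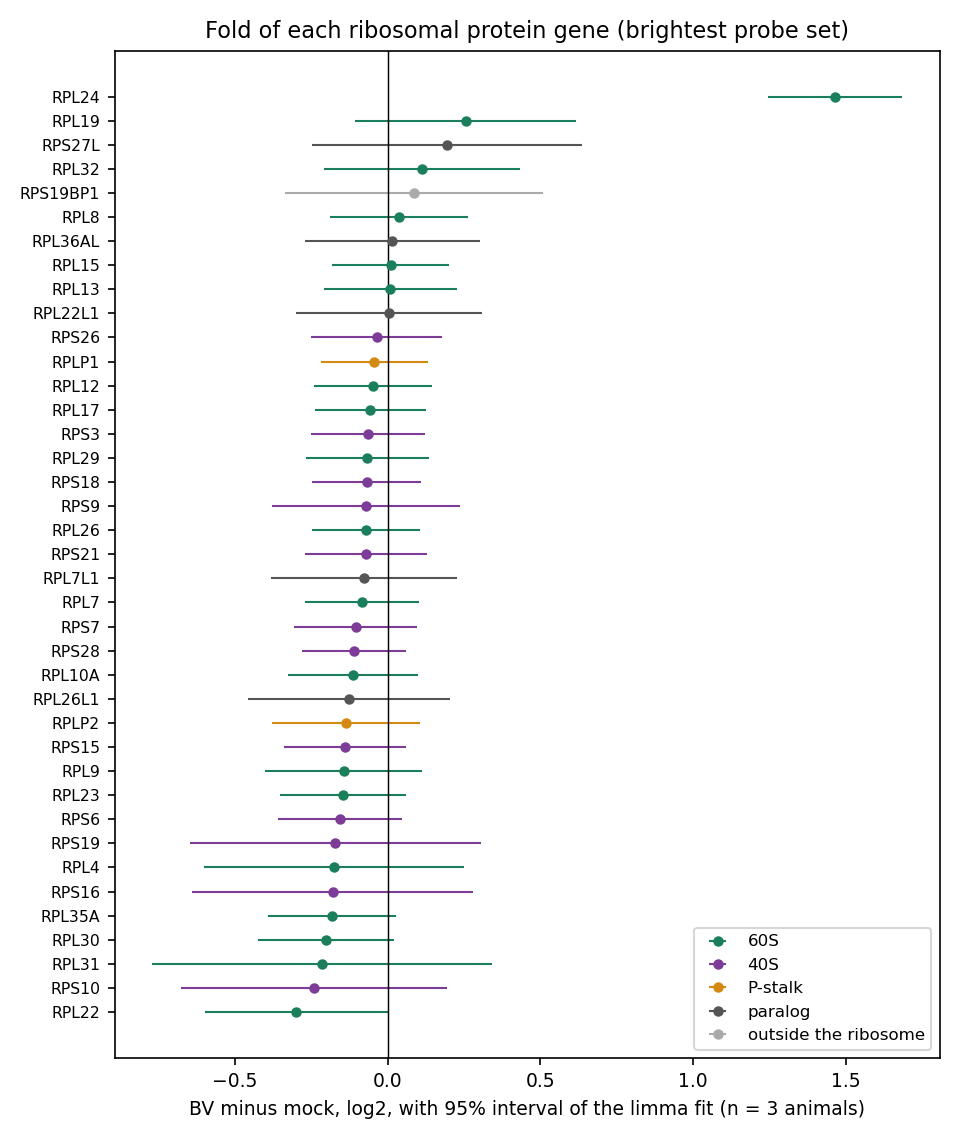
Fold of the 39 ribosomal member genes, each by its brightest tested probe set, as BV minus mock in log2 units with the 95% interval of the limma fit (n = 3 animals), coloured by subunit. RPL24 stands at 1.46, and the other 38 genes lie between -0.30 and 0.26.

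With each gene taken by its brightest probe set, 10 of 39 member genes had higher and 29 lower values after BV (median fold -0.07). Over all probe sets tested the median was -0.02, and 53.1% were lower, against 74.4% of the member genes. These units differ, and with every tested member probe set counted singly 39 of 60 were lower. Over the 18111 tested probe sets with a single symbol, as the members have, the median was 0.03 and 45.7% were lower. The member median minus theirs was -0.10. The small shift depends on the scaling. With arrays centred on their medians the member median was 0.00259 with 20 genes higher and 19 lower, and without normalization -0.14 with 5 higher and 34 lower. These scalings moved the median of all probe sets too, to 0.07 and -0.07. Relative to the median of all probe sets the member median was -0.05 with quantile normalization and -0.06 with either other scaling. By animal the medians over the 39 genes were -0.08, -0.01 and -0.15, with an SD of 0.07 that is about as large as the shift itself. The 38 genes other than RPL24 ranged from -0.30 to 0.26, and the highest upper 95% limit among them was 0.63, of RPS27L. Over the 59 single probe sets it was 1.22, of a dimmer RPL29 probe set. Both are under the lower limit of 1.24 for RPL24, a limit from the values for which RPL24 was singled out. Setting them side by side is a description and no test.

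**Figure D3:**
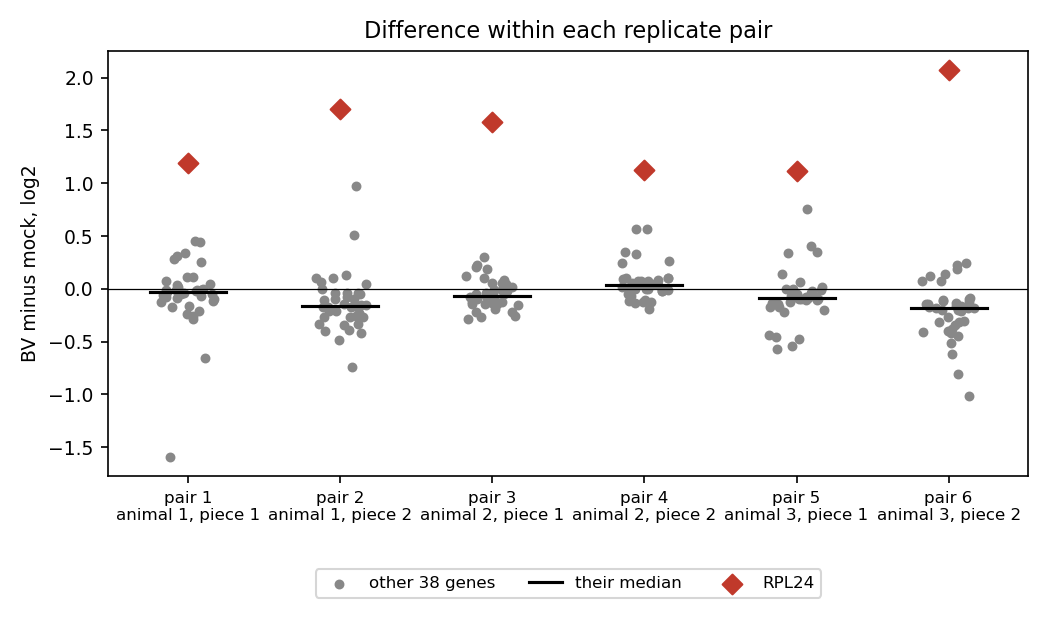
BV minus mock in log2 units within each of the 6 replicate pairs. Grey points are the 38 ribosomal genes other than RPL24, bars their medians, which lie between -0.18 and 0.03, and diamonds RPL24, which lies between 1.12 and 2.07. The lowest grey point, -1.59 in pair 1, is the dim probe set of RPS19.

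Among the 60S genes, RPL24 left out, 5 were higher and 13 lower, with a median of -0.08. RPL19, which spans the large subunit and reaches a bridge to the small one, had the highest fold, 0.26 ± 0.15 (limma, adjusted p = 0.578). Its log2 values ran from 8.18 through 8.24 to 8.46 in BV and from 7.70 through 8.05 to 8.43 in mock tissue, so the groups overlapped. Next came RPL32 at 0.11 ± 0.13, RPL8, a protein near the peptidyl transferase centre, at 0.04 ± 0.09, and RPL15 at 0.01 ± 0.08. RPL22, which is dispensable in many cells and also binds other RNAs, had the lowest fold, -0.30 ± 0.12 (limma, adjusted p = 0.564). Its values were 9.90, 10.08 and 10.25 (lowest, median and highest) in BV and 10.04, 10.39 and 10.63 in mock tissue, lower in BV in 6 of 6 pairs, with overlapping groups. A dimmer RPL22 probe set had a fold of 0.13 ± 0.15. RPL31 had -0.21 ± 0.23, RPL30 -0.20 ± 0.09, RPL35A, mutated in some families with Diamond-Blackfan anaemia, -0.18 ± 0.09, and RPL4, which lines the exit tunnel, -0.18 ± 0.17, none of which passed (limma, adjusted p from 0.569 to 0.705). These lower folds moved when single arrays were left out. RPL31 then ran from -0.44 (without BV replicate 2) to 0.01 (without BV replicate 1), with -0.02 without mock replicate 6. RPL35A ran from -0.28 (without mock replicate 1) to -0.08 (without mock replicate 2), with -0.11 without mock replicate 6, and RPL22 only from -0.36 to -0.24.

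In the 40S subunit 12 of 12 genes had values lower after BV, with a median of -0.11, and none passed in limma (0 with an unadjusted p under 0.05, smallest adjusted p = 0.572). This count depends on the scaling, as 8 of 12 were lower with median centring and 12 of 12 without normalization. The 40S median relative to that of all probe sets hardly moved. It was -0.086 with quantile normalization and -0.090 with either other scaling. The count also depends on single arrays: 12 of 12 held in 5 of the 12 fits that left out 1 array. The count was 10 without BV replicate 1 or mock replicate 2, and 11 when the array left out was BV replicate 2 or 3, or replicate 4, 5 or 6 of the mock arrays. RPS10, a protein of the small subunit's head, had a fold of -0.24 ± 0.18, made of -0.06, 0.01 and -0.67 in the 3 animals. It was -0.38 without mock replicate 5 and -0.10 without mock replicate 6, and in that last fit RPS16, at -0.17, was the lowest of the 40S genes. RPS16 had -0.18 ± 0.19 and RPS19, the protein most often mutated in Diamond-Blackfan anaemia, -0.17 ± 0.19, and both probe sets were dim. The RPS19 fold had no settled direction, at -0.63 without BV replicate 2, 0.28 without BV replicate 1 and 0.03 without mock replicate 6. RPS6, the substrate of the S6 kinases, had probe sets at -0.15 ± 0.08 and -0.07 ± 0.08. The mRNA exit proteins RPS26 and RPS28 had -0.04 ± 0.09 and -0.11 ± 0.07, and RPS3, at the mRNA entry, -0.06 ± 0.08 in its brightest probe set. The RPS28 probe set stood at a mean log2 value of 12.50 in BV and 12.61 in mock tissue, so it too lay near the top of the scale.

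RPLP1 and RPLP2 form the flexible stalk that recruits elongation factors. Their folds were -0.04 ± 0.07 and -0.14 ± 0.10 (adjusted p = 0.810 and 0.610 in limma). RPLP1 values ran from 12.06 through 12.23 to 12.30 in BV and from 12.05 through 12.27 to 12.36 in mock tissue, and both groups of arrays covered nearly one range.

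Paralog genes, which encode variants able to replace or accompany a ribosomal protein, had 5 tested members with a median of 0.01. RPS27L, a target of p53, had 0.19 ± 0.18, higher in 5 of 6 pairs, from a dim probe set. RPL36AL had 0.02 ± 0.12, RPL22L1, the paralog of RPL22, 0.01 ± 0.12, RPL7L1 -0.08 ± 0.12 and RPL26L1 -0.13 ± 0.13. Over these 5 genes the adjusted p in limma ran from 0.672 to 0.989. With median centring 5 of 5 were higher, and without normalization 1. The paralog median relative to that of all probe sets was 0.03 with quantile normalization and 0.06 with either other scaling. RPS19BP1 had 0.09 ± 0.17.

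Probe sets of one gene did not always move alike. Of 15 genes with several tested probe sets, 8 had folds of both signs. RPL29, a small basic protein of the large subunit, was looked at after its values were seen. Its brightest probe set had -0.07 ± 0.08, and the others 0.27 ± 0.18 and 0.55 ± 0.27 (limma, adjusted p = 0.748, 0.595 and 0.569). The last was made of 0.31, -0.025 and 1.36 in animals 1, 2 and 3. Mock replicate 6 had an actin 3'/5' signal ratio of 2.40, a sign of RNA quality that lay between 1.1 and 1.4 on the other 11 arrays. Without that array these RPL29 folds were -0.05, 0.24 and 0.38, and RPL24 had 1.31. Dimmer probe sets of RPL7L1 and RPL32 had folds up to 0.46 and 0.42 with all arrays, and 0.36 and 0.40 without mock replicate 6. The part of RNA quality in these differences was not tested further.

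Some members differed more between the animals than between the treatments. RPL9, a large subunit protein near the site where elongation factors bind, was low in animal 3. Its brightest probe set had log2 values from 9.63 to 10.03 in the 4 arrays of that animal, from 10.69 to 11.28 in animal 1 and from 10.77 to 11.31 in animal 2. All 4 arrays of animal 3 lay below the other 8, on both sides of the brain. The treatment fold of that probe set was -0.14 ± 0.10. A dimmer RPL9 probe set had means of 9.58, 9.76 and 9.31 and overlapped between the animals. RPL35A was low in animal 1, at 10.64 to 11.36 against 11.51 to 11.66 and 11.48 to 11.82 in animals 2 and 3, in 1 probe set. The brighter RPL35A probe set had means of 11.89, 11.94 and 12.12. RPL22L1 had means of 9.62, 10.71 and 10.67, with overlapping arrays, and it also differed between pieces. In animal 1 piece 1 had 9.21 in BV and 8.77 in mock tissue, and piece 2 had 10.25 and 10.26. In animal 2 these values were 10.19 and 10.20 in piece 1 and 11.21 and 11.26 in piece 2. Animal 3 had 10.53 and 10.67 in piece 1 and 10.63 and 10.84 in piece 2. In all, 5 of 60 member probe sets had 1 animal apart from the others (8.33%), against 4.71% of all probe sets tested. No test of levels between animals was made.

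**Figure D4:**
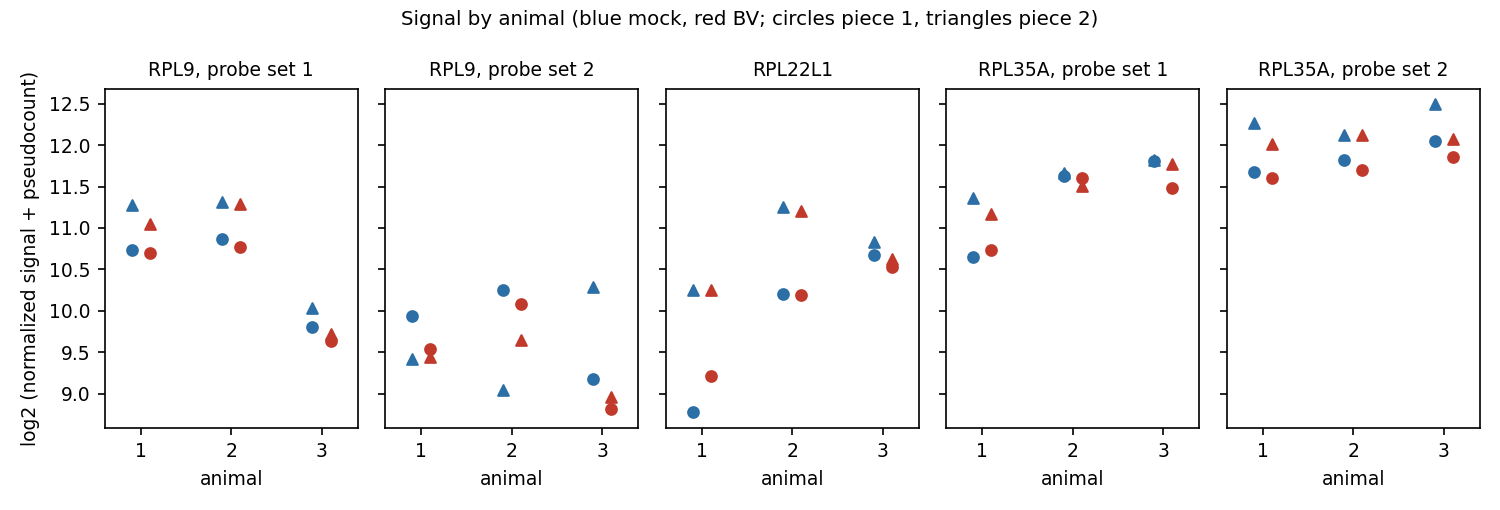
Log2 normalized signal of RPL9, RPL22L1 and RPL35A by animal, with mock arrays in blue, BV arrays in red, piece 1 as circles and piece 2 as triangles. RPL9 probe set 1 stands between 9.63 and 10.03 in animal 3 and from 10.69 to 11.31 in the others, and RPL9 probe set 2 and RPL35A probe set 2 overlap between animals.

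Whether the fold itself differed between animals was tested in limma as an interaction, with the pieces taken as independent arrays. The test called 0 of 60 member probe sets and 0 of all probe sets (0.0%). At an unadjusted p under 0.05 there were 0 members and 735 of all probe sets (2.32%). RPL24 had an adjusted p of 1.00 in that test.

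The arrays on which RPL24 was high were those on which interferon-induced genes were high. Likeness was measured as Pearson's correlation of log2 values with RPL24 over the 12 arrays, which share animals and normalization. It describes these arrays, and since RPL24 was singled out for its rise, genes with a rise rank high. The 10 probe sets most like RPL24 included IFIT1 (r = 0.959) and 3 probe sets of IFIT3 (r from 0.952 to 0.953), both antiviral proteins. They also included ISG15 (r = 0.953), a ubiquitin-like modifier, the antiviral GTPase MX1 (r = 0.952), IFI44 (r = 0.942) and LGALS3BP (r = 0.940), with LOC700227 and an unnamed probe set. Among the 6 mock arrays alone, r was between 0.564 and 0.988 for these 10, and among the 6 BV arrays, where RPL24 varied little, between -0.158 and 0.675. In mock tissue RPL24 and the IFIT3 probe set of highest r there were both lowest in replicate 6, the array of actin 3'/5' ratio 2.40. The 10 were picked on all 12 arrays, so r within either group is not independent of that choice.

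**Figure D5:**
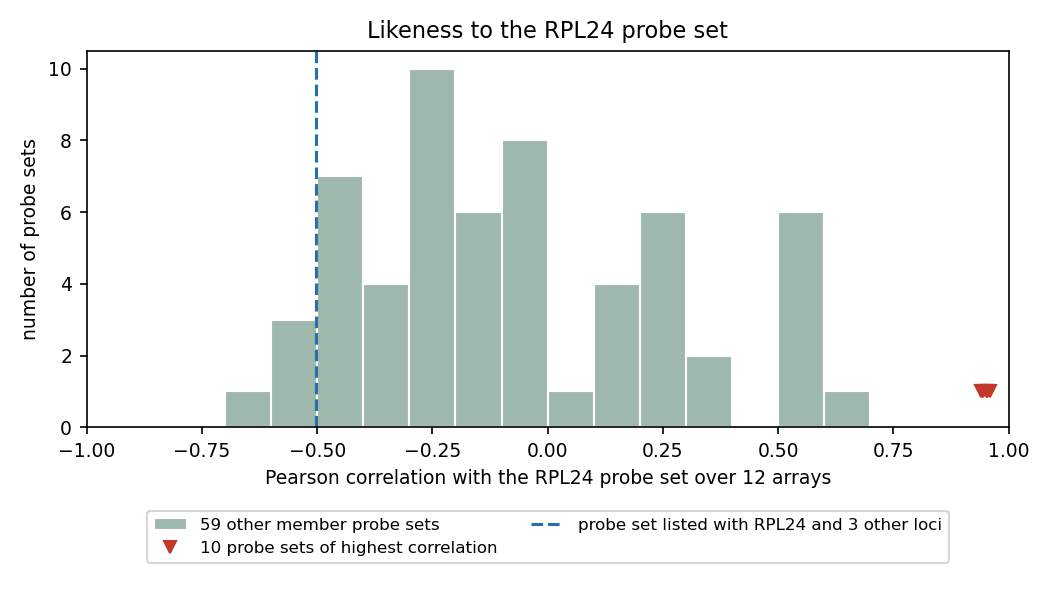
Pearson correlation with the RPL24 probe set over 12 arrays. Bars count the 59 other member probe sets, triangles mark the 10 probe sets of highest correlation, between 0.940 and 0.959, and the dashed line marks the probe set listed with RPL24 and 3 other loci, at -0.504.

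Over the 12 arrays most other member probe sets did not follow RPL24. Their correlations had a median of -0.15 and ran from -0.70 for RPL22 to 0.63 for a dimmer probe set of RPL29, and 20 of 59 were above 0. For all probe sets tested the median was -0.05. These values mostly restate the difference between the groups for which RPL24 was singled out. Within the groups the order was another. Among the 6 BV arrays the members' median was 0.50, with 42 of 59 above 0 and a range from -0.97 to 0.85. There the 10 probe sets of highest 12-array likeness had a median of 0.42 and all probe sets tested -0.03. RPL24 was 12.21 in BV replicate 1 and 12.45 to 12.49 in the other BV arrays, so these correlations lean mostly on replicate 1. The median of the other ribosomal genes, at 11.37, was also lowest in that BV array. Among the 6 mock arrays the members' median was -0.19, with 23 of 59 above 0, against 0.84 for the 10 and -0.06 for all. The 10 were picked by likeness over 12 arrays that include these 6, so their mock median is in part set by that choice. Of the mock arrays RPL24 was lowest in replicate 6, the array of actin 3'/5' ratio 2.40. The probe set listed with RPL24 and 3 other loci had r = -0.504 with RPL24.

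Genes next to RPL24 were looked up in the RefSeq order of the T2T-MFA8v1.1 assembly. On one side lie CEP97, NXPE3 and NFKBIZ, an inhibitor-like regulator of NF-kappaB, and on the other ZBTB11. NFKBIZ had folds of 0.68 ± 0.19 and 0.34 ± 0.16 in its probe sets, each with higher values in 6 of 6 pairs. NXPE3 had 0.46 ± 0.20, CEP97 0.26 ± 0.18 and ZBTB11 -0.10 ± 0.16. None passed in limma (adjusted p from 0.550 to 0.803).

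Genes that work with the ribosome were compared as well, from lists chosen with earlier results known, and 0 were called in any list. These were 8 tested genes of late 60S assembly, 15 of nucleolar biogenesis, 21 initiation factors, 3 of elongation, 62 mitochondrial ribosomal proteins, 12 of S6 kinase and mTOR signalling and 2 other ribosome genes. At an unadjusted p under 0.05 in limma there were 1 initiation factor and 1 gene of the mTOR list, both higher. Over all probe sets tested 5.15% were higher and 3.65% lower at that threshold. After adjustment only 0.0284% of all probe sets were called higher and 0.0% lower. A count of 0 in lists of this size therefore says little about these genes. Of late 60S assembly 6 of 8 genes had higher values, with a median of 0.16, and 54.3% of tested probe sets with a single symbol did so. By animal the median was 0.09, 6.85e-05 and 0.28, so animal 2 did not show it. The export adaptor NMD3 had 0.19 ± 0.13, EIF6, which keeps the subunits apart, 0.29 ± 0.15, TMA16 0.51 ± 0.24 and LSG1, a GTPase that releases NMD3, -0.25 ± 0.17. FAU, which encodes RPS30 as a fusion, and the ribosome-bound scaffold RACK1 had -0.09 ± 0.08 and -0.00028 ± 0.09.

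Medians were 0.01 for nucleolar genes, 0.03 for initiation factors, 0.02 for mitochondrial ribosomal proteins, -0.03 for S6 kinase and mTOR genes and -0.21 for the 3 elongation genes. The last was 0.05, 0.11 and -0.56 in animals 1, 2 and 3, so it was below 0 only in animal 3. Mock replicate 6 is an array of that animal, and the part of RNA quality in this median was not tested. The genes of largest fold were RRS1 at 0.23 ± 0.15 and TCOF1 at -0.18 ± 0.19, both nucleolar, and the initiation factors EIF3B at 0.55 ± 0.19 and EIF2S3 at 0.52 ± 0.27. Next to them stood MRPL58 at 0.58 ± 0.28 and MRPL19 at 0.39 ± 0.18 of the mitochondrial ribosome. RPS6KA5, a kinase of the nucleus, had -0.64 ± 0.32 and MYC, a driver of ribosome synthesis, 0.47 ± 0.18. EEF1D had -0.25 ± 0.18 and EEF1A2, the neuronal elongation factor, 0.24 ± 0.10. Their adjusted p in limma ran from 0.564 to 0.696. Several of these folds differed in sign between animals. RPS6KA5 had -0.81, 0.28 and -1.39, EIF2S3 0.39, -0.11 and 1.27, EEF1D -0.30, 0.11 and -0.56 and TCOF1 0.23, -0.51 and -0.28 in animals 1, 2 and 3. EIF3B, MYC, MRPL58, MRPL19, EEF1A2 and RRS1 were above 0 in each animal. MRPL19 and RRS1 were higher in 4 of 6 pairs and the others in 5 or 6. In pair 6, which holds mock replicate 6, MRPL58, EIF3B, MRPL19 and MYC had their largest folds, at 1.45, 1.37, 1.08 and 0.81. EEF1A2 and RRS1 had theirs in pair 2, at 0.47 and 0.97. EIF3B, MYC and MRPL58 were dim, at mean log2 values of 5.80, 5.82 and 6.09.

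The tissue label was checked against marker genes. Brain markers were present, with 5 of 5 neuronal, 4 of 4 astrocyte and 2 of 2 oligodendrocyte genes on the array above the filter, and no marker was at 0. The mean log2 value of 6 thalamic markers ran from 6.31 to 9.25 in BV and from 5.99 to 9.21 in mock tissue and was higher in BV in 6 of 6 pairs, as was RPL24, with a median fold of 0.94. That of 6 markers of striatal medium spiny neurons ran from 5.40 to 9.45 in BV and from 5.81 to 10.45 in mock tissue. It was higher in BV in 3 of 6 pairs, with a median fold of -1.06. That of 8 microglial and macrophage markers was higher in BV in 5 of 6 pairs, at 8.49 to 9.58 against 7.93 to 9.44, and so was that of 3 T and NK cell markers, at 5.40 to 7.38 against 5.40 to 6.30. No tested marker of these lists was called in limma, where 0.0284% of all probe sets were called higher and 0.0% lower. The part of tissue and cell make-up in the RPL24 difference was not tested, and in such tissue more cells of a type and more RNA per cell cannot be told apart.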

How the data were processed

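The authors deposited linear intensity values of each probe set. GCOS 1.4.0.036 is named in the submitters' processing notes, and how probes were summarised and scaled is not stated in the labels. The 12 arrays were quantile-normalized and the pseudocount, the 10th percentile of all intensities, was added before log2. Control probe sets (99) were left out, and probe sets under the 40th percentile of mean log2 were not tested. Both pieces of a hemisphere were averaged, and the 6 means fitted in limma 3.58.1 (R 4.3.3) with animal as block, eBayes with a trend, 2 residual degrees of freedom before moderation and Benjamini-Hochberg adjustment at 0.05, two-sided. Same-numbered BV and mock arrays come from one animal and piece by the labels. Deviations from group means of such pairs correlated at r = 0.284 to 0.623. The number of arrays limits the precision. The labels name labelling kits of different makers without saying which arrays got which. Of the probe sets, 24969 had 1 symbol, controls included, 361 several and 27535 none. Genes were named by rule: RPL24, members past 0.05, the 8 of highest and the 8 of lowest fold, stalk, 5S partner and paralog genes, the 10 probe sets most like RPL24, assembly partners, ISG15 and MX1, and the 2 of largest fold in each related list. Members, lists and this rule were chosen with earlier results of these data known. The fit was also run on simulated arrays with known folds, whose noise was independent between arrays. That run therefore says nothing about dependence between pieces or hemispheres of an animal.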

Additional observations from a re-analysis of the deposited data

Results flagged for a closer look

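Among the 48 named probe sets, 4 values stood far from the other 5 arrays of their group, of 96 groups looked at; chance alone flags about 1 group in 20. RPL24 had a log2 value of 12.2 in BV replicate 1, below the other BV arrays. RPS16 had 7.26 in BV replicate 1, above the others. The nucleolar gene TCOF1 had 6.79 in BV replicate 4, below the others, and the GTPase LSG1 8.72 in BV replicate 5, above the others.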

How the results depend on the processing

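The fold of RPL24 kept its direction in all 29 alternatives. It no longer passed without normalization (1.36, adjusted p = 0.107), without the filter (1.46, adjusted p = 0.0951), without the variance trend (1.46, adjusted p = 0.168), in the piece 2 arrays (1.63, adjusted p = 0.545) and without animal 1 (1.47, adjusted p = 0.164). In each of these 5, and without BV replicate 6, mock replicate 3 or mock replicate 5, 0 members were called in place of 1, so leaving out single arrays gave 0 to 1. RPL24 folds without single arrays ran from 1.31 to 1.62 and median member folds from -0.145 to -0.0263. With the replicate block on single arrays RPL24 had 1.46 (adjusted p = 0.00470), 1 member was called and the median was -0.07. The replicate block changed the call of no member. It called 55 probe sets in all, against 9 with averaged pieces. On the same single arrays, animal as the block called 30, and 38 with a term for piece. These single-array fits take the pieces of a hemisphere as independent arrays. Median centring put the member median at 0.00259. The number of probe sets called in all ran from 0 to 1845 over the alternatives. The cause of these changes was not tested.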
